A study of Mus musculus with 6 samples.

Results

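The genes described here are 10 activity-induced immediate early genes, taken by their mouse symbols: *Fos*, *Fosb*, *Fosl2*, *Junb*, *Egr1*, *Egr2*, *Egr3*, *Npas4*, *Nr4a1* and *Arc*. They were 10 of the 43346 Ensembl mouse genes that the expression tables list, and 9 of them, all but *Egr2*, held enough counts to be among the 15747 genes tested. In retinal ganglion cells (RGCs) that received a Sox11 virus, *Arc* was 4.56-fold lower than in control cells, and with the mutant Sox11K91A it was 5.66-fold lower. *Fosl2* was 3.86-fold lower with Sox11, a call that was lost with quality weights and in a fit of only the 2 groups, where that of *Arc* held. Of the 9 genes, 2 were thus downregulated with Sox11 and 1 with Sox11K91A, where 10.2% and 4.81% of all genes tested were. The other 7 genes tested did not pass the test with either virus, although most of their fold changes were negative.

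RNA was sequenced from cultured mouse RGCs in 3 groups of 2 libraries each. Control cells received an adeno-associated virus (AAV) that expresses EGFP, and the other groups received an AAV for Sox11 with EGFP or for Sox11K91A with EGFP. Sox11 is a transcription factor of the SoxC family, and in Sox11K91A the lysine to which the small protein SUMO is attached is replaced by alanine. All 3 groups shared the rest of the treatment. RGCs were isolated by immunopanning on CD90.1, the Thy1 surface protein, and grown in medium with forskolin, BDNF at 50 ng/ml and CNTF at 10 ng/ml. Wells of 250000 cells were given 1.5 μl of AAV, about 100000 vector genomes for each cell, 4 h after they were plated. Fresh medium followed 5.5 and 24 h after the virus, RNA was taken 72 h after plating, and the protocols describe no acute stimulus. The age is embryonic day 18 in the RNA-seq protocol, postnatal day 2 in the general culture protocol and P0 in the names of the deposited tables. The protocols name wells in quadruplicate and libraries in duplicate but not separate animals or cultures, so the p-values below measure only the spread between these libraries. In control and in Sox11 the 2 libraries differed in the sex-linked transcripts given below, so those pairs do not look like duplicates of 1 RNA. The Sox11K91A libraries were alike in them, and their spread may be technical.

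Immediate early genes are transcribed within minutes of a rise in calcium, cyclic AMP or growth factor signalling, from factors that are already present in the cell, such as CREB, SRF and MEF2. Their RNAs are short-lived, and most of them encode transcription factors that then switch on a later set of genes for secreted peptides and synaptic proteins. Forskolin activates adenylyl cyclase and BDNF activates the receptor TrkB, both known inputs to these genes in neurons, so the cultures measured them in a continuously supplemented state.

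The windows around the start sites were searched for elements through which such signals are known to act. RefSeq promoter windows on GRCm38.p6, from 250 bases before to 50 bases after a start, were held for 7 of the 10 genes, and not for *Egr1*, *Egr3* and *Arc*. Searched on both strands, TGACG, the half-site of the cyclic AMP response element bound by CREB, was in the first window of 5 of the 7 genes and in 20.8% of 32851 promoter windows. The 4 sequences below were chosen because they carry that half-site in 3 AP-1 genes and in the nuclear receptor gene *Nr4a1*. Capitals mark TGACG on either strand, read as CGTCA on the other, and the TATA box TATAAA.

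Fos, chr12:85473640-85473889, + strand: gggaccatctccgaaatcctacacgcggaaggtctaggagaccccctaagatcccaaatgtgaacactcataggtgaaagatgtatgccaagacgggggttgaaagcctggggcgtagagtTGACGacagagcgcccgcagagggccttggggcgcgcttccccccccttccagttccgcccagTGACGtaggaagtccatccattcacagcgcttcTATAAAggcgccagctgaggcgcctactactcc

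Fosb, chr7:19310052-19310295, − strand: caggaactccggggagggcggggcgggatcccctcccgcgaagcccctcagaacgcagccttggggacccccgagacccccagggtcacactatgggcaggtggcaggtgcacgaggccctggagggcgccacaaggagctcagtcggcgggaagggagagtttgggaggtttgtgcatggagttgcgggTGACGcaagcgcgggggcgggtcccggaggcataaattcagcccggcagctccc

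Junb, chr8:84978749-84978998, − strand: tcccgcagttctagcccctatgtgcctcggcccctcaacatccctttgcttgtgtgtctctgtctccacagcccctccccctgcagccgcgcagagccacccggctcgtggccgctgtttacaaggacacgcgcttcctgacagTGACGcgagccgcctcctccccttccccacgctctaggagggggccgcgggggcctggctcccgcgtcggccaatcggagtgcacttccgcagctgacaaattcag

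Nr4a1, chr15:101266596-101266845, + strand: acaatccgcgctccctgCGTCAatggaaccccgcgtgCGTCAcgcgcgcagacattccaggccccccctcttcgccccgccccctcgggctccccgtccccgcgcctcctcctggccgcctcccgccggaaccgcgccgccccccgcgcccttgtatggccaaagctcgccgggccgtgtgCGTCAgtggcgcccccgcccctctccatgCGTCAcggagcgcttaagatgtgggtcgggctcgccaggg

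The half-sites of *Fos* begin 129 and 66 bases before its start and the TATA box 33 bases before it. *Fosb* has 1 half-site at 60 bases before the start, *Junb* has 1 at 106 bases, and *Nr4a1* has 4, at 233, 213, 69 and 40 bases. *Npas4* has 2, at 179 and 169 bases before its start. The full element TGACGTCA, which contains the half-site on both strands, was in 0 of the 7 first windows and in 1.79% of all windows. The CArG box of SRF was likewise in 0 of 7 first windows and 1.63% of all, although later start sites of *Egr2* had it. The Egr site GCGNGGGCG was in the windows of *Fosb*, *Fosl2* and *Nr4a1* and in 5.55% of all. Neither the AP-1 site TGANTCA, in 7.81% of all windows, nor ACAAAG or ACAATG, sequences bound by Sox proteins, in 28.6%, was in a first window of the 7. These matches describe the letters in these windows and are not evidence of binding. Sequence more than 250 bases upstream was not searched, so a window without a match does not show that the gene lacks the site.

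The authors aligned reads to mm10 with STAR and deposited an RSEM expected count and a TPM per gene, and the expected counts summed to between 27521982 and 37061718 per library. *Sox11* was at 234 and 332 CPM (counts scaled to library size by the TMM method) in the controls, at 9180 and 14600 with the Sox11 virus, and at 12000 and 7030 with Sox11K91A, so all 4 virus libraries carried the transgene, although gene counts do not separate Sox11 from Sox11K91A. The first principal component, with 62.9% of the variance, placed the controls at -75 and -72.2. On it the Sox11 libraries were at 20.9 and 74.2 and the Sox11K91A libraries at 41.3 and 10.8, ranked as their *Sox11* CPM. The second component, with 18.2% of the variance, set control replicate 2 and Sox11 replicate 2 apart from the remaining 4 libraries. The same 2 libraries had the lowest *Xist*, the transcript of the inactive X chromosome, at 95.9 and 254 CPM against 400 to 526 in the others, and the highest Y-linked *Ddx3y*, at 29.9 to 30.0 CPM against 16.2 to 17.7. RGC markers summed to 5330 to 11400 CPM. Counts of members and of the gene lists of the pathway are given below for the main fit and for a fit with a block term that sets these 2 libraries apart.

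Per length of transcript, *Fos* was the most abundant of the 10 genes. Its mean over the 6 libraries was 123 TPM, above 93.3% of the genes with a mean above 0, and its lowest library, at 85.0 TPM, exceeded the highest library of every other member. *Junb* and *Fosl2* followed at means of 22.3 and 21.4 TPM, and their ranges over the libraries, 10.6 to 48.9 and 7.20 to 61.4, overlapped. *Nr4a1* at 12.5, *Fosb* at 8.07, *Egr1* at 7.39, *Npas4* at 6.82 and *Arc* at 5.58 TPM formed a middle set in which neighbours also overlapped. *Egr3* at 1.19 and *Egr2* at 0.163 TPM were the lowest, above 42.0% and 25.1% of those genes.

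**Figure D1:**
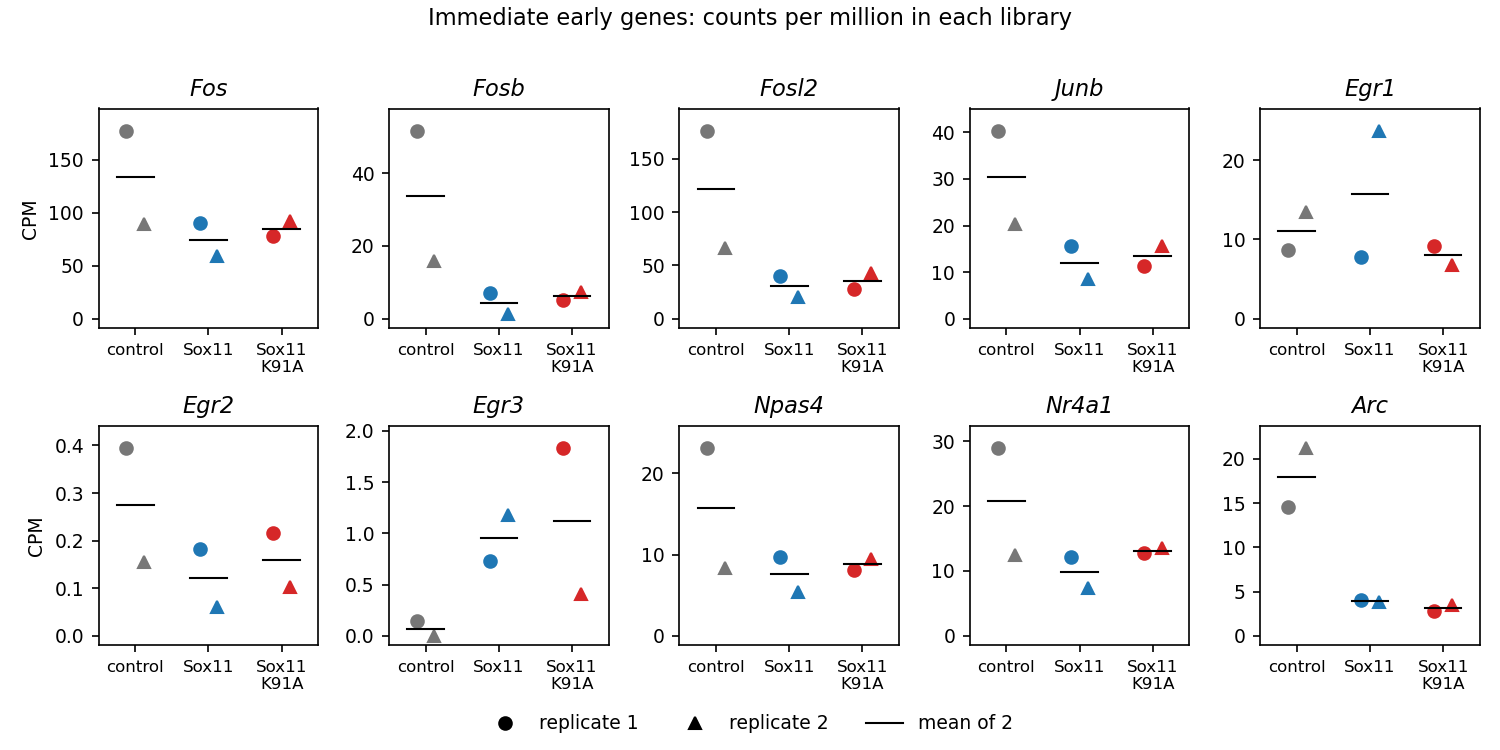
CPM, counts scaled to library size, of the 10 immediate early genes in each of the 6 libraries, with circles for replicate 1, triangles for replicate 2 and a line at the mean of each group. *Arc* separates the control libraries, at 14.6 and 21.2 CPM, from all 4 virus libraries, at 2.82 to 4.04, while for *Fos* and *Npas4* the second control library lies among them.

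Compared with control, Sox11 downregulated 2 of the 9 members tested, *Fosl2* and *Arc*, and upregulated 0, where 10.2% of all genes tested were called downregulated and 9.96% upregulated. A gene was called by limma-voom where its false discovery rate (FDR) was under 0.05 and its fold change exceeded 1.2 in either direction. Sox11K91A downregulated 1 of 9, *Arc*, against 4.81% of all genes downregulated and 5.81% upregulated. Of the log2 fold changes of the members, 7 of 9 were negative with Sox11 and 8 of 9 with Sox11K91A, with medians of -0.97 and -0.59, where the medians of all genes tested were 0.01 and 0.02. Both comparisons used the same 2 control libraries, so they are not separate evidence. As these are bulk samples, fewer cells that express a gene and less RNA per cell cannot be told apart.

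*Arc* encodes a capsid-forming protein that traffics to dendrites and regulates AMPA receptor endocytosis at synapses. Its counts were 408 and 816 in the controls, 111 and 126 with Sox11, and 91 and 103 with Sox11K91A. Both control libraries were well above all 4 virus libraries. The log2 fold change was -2.19 (SE 0.30, adjusted p = 0.012) with Sox11, 4.56-fold lower, and -2.50 (SE 0.31, adjusted p = 0.015) with Sox11K91A, 5.66-fold lower. *Arc* was also the member whose 2 Sox11 libraries were closest to each other. The call held in 19 of 20 alternative analyses with Sox11 and 17 of 20 with Sox11K91A. It was lost without replicate 2 of Sox11, at a log2 fold change of -2.14 (adjusted p = 0.085), and for Sox11K91A without control replicate 2 (-2.22, adjusted p = 0.056) or without replicate 1 or 2 of Sox11K91A (-2.33 and -2.66, adjusted p = 0.15 and 0.056).

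The AP-1 subunits *Fos*, *Fosb*, *Fosl2* and *Junb* encode leucine zipper proteins that bind DNA as Fos-Jun pairs. *Fosl2*, which encodes Fra-2, was at 176 and 66.4 CPM in the controls, 40.3 and 20.2 with Sox11, and 27.7 and 42.4 with Sox11K91A. The 2 control libraries differed from each other by more than the lower of them did from the highest virus library. The log2 fold change of *Fosl2* was -1.95 (SE 0.52, adjusted p = 0.041) with Sox11, a 3.86-fold decrease, and -1.67 (SE 0.51, adjusted p = 0.079) with Sox11K91A, which missed the threshold. With Sox11 its call held in 12 of 20 alternative analyses. It was lost with quality weights (adjusted p = 0.067), on log2(TPM + 1) and log2(TPM + 0.1) (both 0.074) and in a fit of only the 2 groups (0.051). It was also lost without control replicate 1 (-1.25, adjusted p = 0.076), Sox11 replicate 2 (-1.43, adjusted p = 0.24) and either Sox11K91A library (both -1.95, adjusted p = 0.053 and 0.055).

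*Fosb* had the most negative fold change of the members with Sox11 without passing the test. Its CPM was 51.6 and 15.8 in the controls, 7.13 and 1.24 with Sox11, and 5.12 and 7.41 with Sox11K91A. The groups did not overlap, but replicates within the control and Sox11 groups differed several-fold. The log2 fold change was -3.28 (SE 0.95, adjusted p = 0.052) with Sox11 and -2.16 (SE 0.79, adjusted p = 0.12) with Sox11K91A. The gene is known for its stable splice form ΔFosB, which gene-level counts do not separate.

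*Junb* encodes a Jun protein that pairs with Fos proteins. It was at 40.3 and 20.4 CPM in the controls, 15.5 and 8.48 with Sox11, and 11.3 and 15.7 with Sox11K91A. The control libraries again lay above all 4 virus libraries, with log2 fold changes of -1.32 (SE 0.42, adjusted p = 0.066) and -1.08 (SE 0.41, adjusted p = 0.13). The end of *Junb* (chr8:84974484-84978718) overlaps the opposite-strand gene *Prdx2*, and the use of strand in counting was not stated, so reads in the overlap cannot be assigned with certainty. *Prdx2* itself had log2 fold changes of 0.42 (adjusted p = 0.13) and 0.50 (adjusted p = 0.11).

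*Fos*, the prototype of the class, was at 177 and 89.4 CPM in the controls, 90.2 and 58.8 with Sox11, and 78.1 and 91.8 with Sox11K91A. Control replicate 2 lay within the range of the virus libraries, and only control replicate 1 was apart. The log2 fold change was -0.80 (SE 0.34, adjusted p = 0.14) with Sox11 and -0.58 (SE 0.34, adjusted p = 0.30) with Sox11K91A. The 95% interval with Sox11, from -1.60 to 0.01, included 0.

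The Egr genes encode zinc finger transcription factors that bind GC-rich sites and did not share a direction. *Egr1* was at 8.62 and 13.5 CPM in the controls, 7.79 and 23.7 with Sox11, and 9.15 and 6.82 with Sox11K91A. All 3 groups overlapped, and the highest value was replicate 2 of Sox11. The log2 fold change was 0.34 (SE 0.51, adjusted p = 0.66) with Sox11 and -0.48 (SE 0.56, adjusted p = 0.61) with Sox11K91A, and without replicate 2 of Sox11 the former became -0.50 (adjusted p = 0.51).

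*Egr3* was the only member with higher levels in all 4 virus libraries than in both controls. It had 4 and 0 counts in the controls, 20 and 39 with Sox11, and 59 and 12 with Sox11K91A. The groups did not overlap, but *Egr3* passed the filter on low counts through the virus libraries. The fitted log2 fold changes were 4.49 (SE 1.52, adjusted p = 0.076) and 4.42 (SE 1.52, adjusted p = 0.10), values that rest on a control near 0 counts and are not a bound. Without the control library at 0 counts they were 2.57 and 2.50 (adjusted p = 0.28 and 0.34). *Egr2*, which is required for hindbrain patterning and peripheral myelination, had 11 and 6 counts in the controls, 5 and 2 with Sox11, and 7 and 3 with Sox11K91A. It did not pass the filter on low counts, and in a fit of all genes with at least 1 count it was at -1.06 (SE 0.89, adjusted p = 0.51) and -0.59 (SE 0.87, adjusted p = 0.74).

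*Npas4* and *Nr4a1* encode a neuronal bHLH-PAS factor that responds to calcium and an orphan nuclear receptor also known as Nur77. *Npas4* was at 23.1 and 8.33 CPM in the controls, 9.75 and 5.46 with Sox11, and 8.13 and 9.46 with Sox11K91A. Control replicate 1 lay above all others and control replicate 2 lay among the virus libraries. Its log2 fold changes were -0.88 (SE 0.53, adjusted p = 0.27) and -0.59 (SE 0.51, adjusted p = 0.49).

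*Nr4a1* was at 28.9 and 12.5 CPM in the controls, 12.2 and 7.33 with Sox11, and 12.7 and 13.5 with Sox11K91A. Sox11 and control did not overlap, by a narrow margin, and both Sox11K91A libraries were above control replicate 2. The log2 fold changes were -0.97 (SE 0.45, adjusted p = 0.16) and -0.48 (SE 0.42, adjusted p = 0.49). Without control replicate 1, the fold changes of *Npas4* and *Nr4a1* with Sox11K91A were both 0.07 (adjusted p = 0.90 and 0.88).

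**Figure D2:**
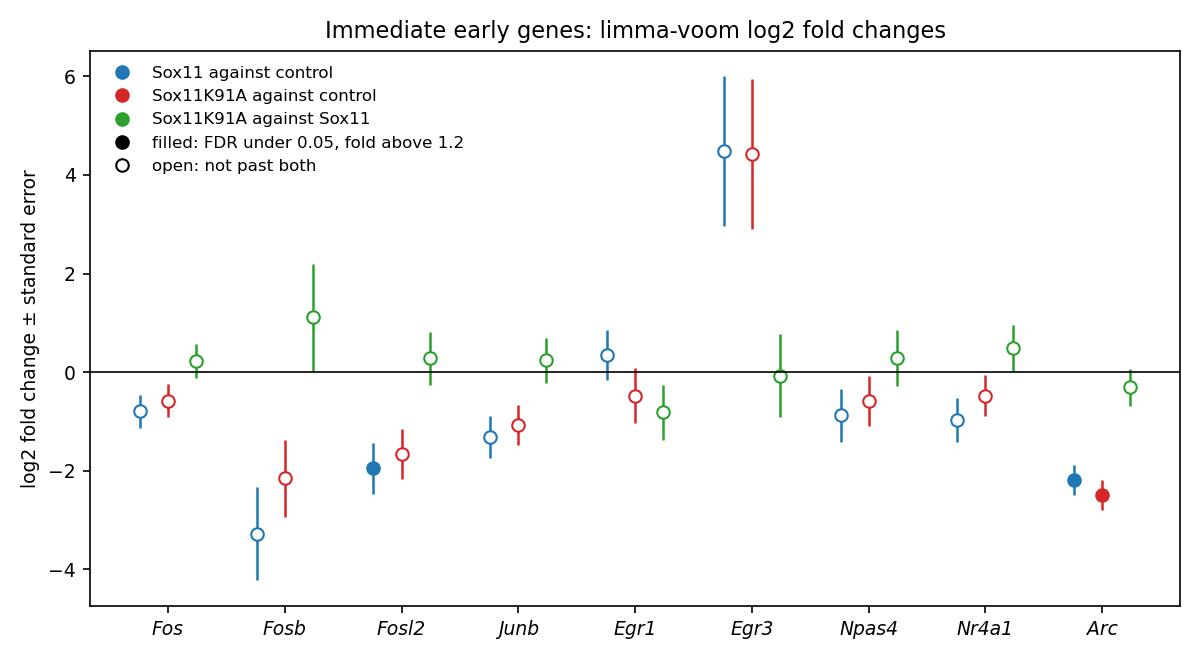
Log2 fold changes of the 9 members tested, by limma-voom, with bars of 1 standard error, for Sox11 against control, Sox11K91A against control and Sox11K91A against Sox11. Filled points passed the FDR of 0.05 with a fold above 1.2: *Arc* at -2.19 and -2.50 with the viruses and *Fosl2* at -1.95 with Sox11.

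Counted by separation alone, 5 of 9 members (*Fosb*, *Fosl2*, *Junb*, *Nr4a1* and *Arc*) were lower in both Sox11 libraries than in both controls, and *Egr3* was higher. The shares of all genes tested that separated in this way were 30.6% lower and 30.9% higher. With Sox11K91A, 4 of 9 were lower and *Egr3* was higher, against 30.7% and 31.2% of all genes. Separation of 2 libraries from 2 was thus frequent throughout the transcriptome.

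The replicates of one group differed more in these genes than in most. Between the 2 control libraries, 7 of 9 members were lower in replicate 2, at differences of -1.70 to -0.98 on the log2 scale, and only *Egr1* and *Arc* were higher, by 0.65 and 0.53. The median absolute difference was 1.21 for the members and 0.34 for all genes tested. Between the Sox11 libraries 7 of 9 were also lower in replicate 2, with a median absolute difference of 0.83 against 0.26 for all genes. Sox11K91A replicates were closer, with 2 of 9 lower in replicate 2 and medians of 0.42 against 0.16. In each group close to 50% of all genes were lower in replicate 2 (49.7%, 50.3% and 49.9%). The summed CPM of the 10 genes was 521 and 247.7 in the controls, 187.8 and 130.1 with Sox11, and 157.1 and 191.1 with Sox11K91A, so control replicate 2 lay nearer to the virus libraries than to the other control. Among the virus libraries this sum fell in the order in which *Sox11* rose, from 7030 to 14600 CPM. Not every member followed, as *Egr1* rose in that order from 6.82 to 23.7 CPM. The part of the *Sox11* level in these differences was not tested.

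**Figure D3:**
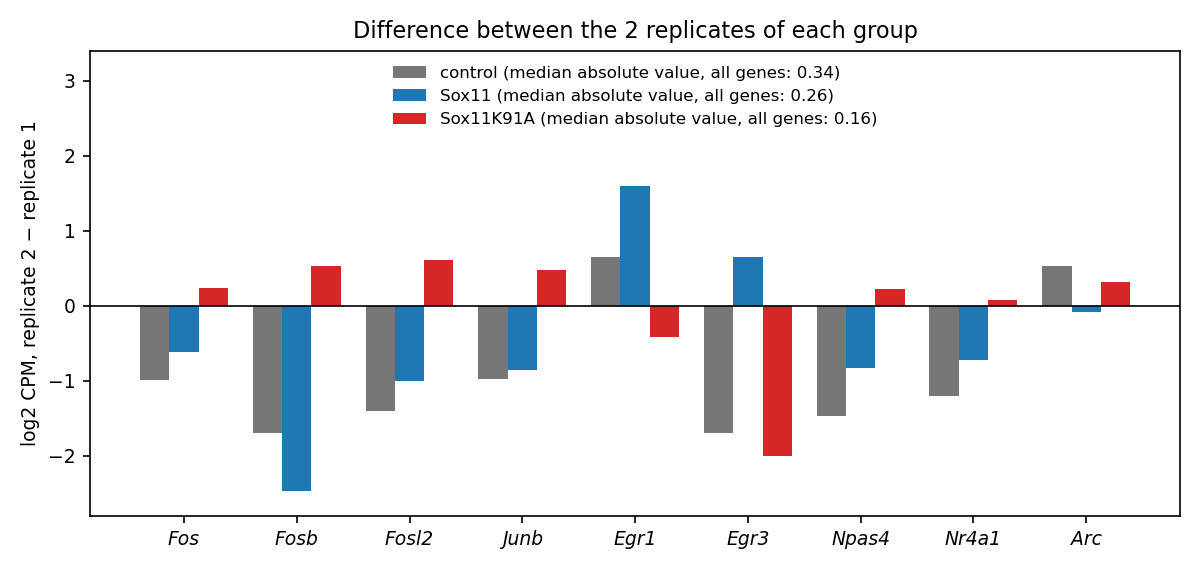
Difference in log2 CPM between replicate 2 and replicate 1 of each group for the 9 members tested, 1 bar per gene and group. The control and Sox11 bars point down for *Fos*, *Fosb*, *Fosl2*, *Junb*, *Npas4* and *Nr4a1*, while the Sox11K91A bars of the same genes point up by 0.08 to 0.61.

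The calls depended on how the 2 libraries that stood apart were handled. With a block term for control replicate 2 and Sox11 replicate 2, the members called downregulated numbered 7 of 9 with Sox11, where 15.5% of all genes were called downregulated, and 7 of 9 with Sox11K91A, where 9.87% were. The 7 were *Fos*, *Fosb*, *Fosl2*, *Junb*, *Npas4*, *Nr4a1* and *Arc* with each virus. The block held no Sox11K91A library, so it shifted the control level set against Sox11K91A toward control replicate 1. This also applies to the list counts below. *Fos* with Sox11K91A was at -0.58 in the main fit and at -1.07 without control replicate 2. In the fit with the block *Fos* was at -0.79 (adjusted p = 0.015) and -0.97 (adjusted p = 0.017), and *Fosb* at -3.10 (adjusted p = 0.0062) and -3.13 (adjusted p = 0.0085). Leaving out both libraries also gave those 7 genes with each virus, against 5.45% and 13.9% of all genes, with the spread then taken from the Sox11K91A pair alone, the group with the closest replicates.

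Leaving out single libraries moved the number of members called downregulated between 0 and 7 with Sox11. Without control replicate 2 it was 7, where 6.39% of all genes were called downregulated, and without control replicate 1 or either Sox11K91A library it was 1, *Arc*. Without Sox11 replicate 2, limma-voom called 0 members and 0 of all genes with Sox11, and 1 member and 3349 genes had an unadjusted p under 0.05. With Sox11K91A the number was 0 without control replicate 2, without Sox11K91A replicate 1 and without Sox11K91A replicate 2, with 7, 1 and 4 members at an unadjusted p under 0.05. Of all genes, 0, 0 and 161 were called in these fits, and 4703, 1915 and 3226 had an unadjusted p under 0.05. DESeq2 called 5 members downregulated with Sox11 and 3 with Sox11K91A, and *Egr3* upregulated with each, against 14.7% and 10.1% of all genes downregulated and 14.0% and 9.85% upregulated. The quasi-likelihood test of edgeR called the same members as limma-voom, *Fosl2* and *Arc* with Sox11 and *Arc* with Sox11K91A, against 8.68% and 3.63% of all genes downregulated.

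No member was called between Sox11K91A and Sox11, a comparison that asks whether the lysine matters for these genes. Of all genes tested, 0.0% were called upregulated and 0.0% downregulated by limma-voom, and 108 had an unadjusted p under 0.05, of which 0 were members. DESeq2 called 2 genes downregulated (0.0127%), no member among them, and edgeR called 0. The 95% interval of the difference, Sox11K91A minus Sox11, was -1.20 to 0.58 for *Arc*, -0.59 to 1.02 for *Fos*, -0.99 to 1.55 for *Fosl2* and -0.86 to 1.34 for *Junb* on the log2 scale. It was wider for *Fosb* (-1.47 to 3.69) and *Egr3* (-2.05 to 1.91). These intervals leave room for differences of more than 1 on the log2 scale in every member tested, so the viruses were not shown to act alike. *Nr4a1* was higher in both Sox11K91A libraries than in both Sox11 libraries (log2 fold change 0.49, SE 0.47) and *Arc* was lower in both (-0.31, SE 0.38), separations that 13.3% and 13.4% of all genes showed.

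Of 44 further immediate early genes, all tested, Sox11 downregulated 13 and upregulated 4, and Sox11K91A downregulated 9 and upregulated 3. The downregulated shares were 29.5% and 20.5%, where those of all genes were 10.2% and 4.81%. The upregulated shares, 9.09% and 6.82%, were near those of all genes, 9.96% and 5.81%. The list median was -0.40 and -0.34. With the block for the 2 libraries that stood apart, calls went down for 15 of the 44 and up for 8 with Sox11. Among all genes, that fit called 15.5% down and 14.8% up. Sox11K91A had 11 down and 4 up, beside all-gene shares of 9.87% and 9.21%. In the main fit, the genes called downregulated with both viruses included *Atf3*, a stress-induced bZIP factor. It went from 30.0 and 38.6 CPM in control to between 3.13 and 6.89 in the virus libraries (log2 fold changes -2.81 and -2.89, adjusted p = 0.011 and 0.014). *Cebpb*, another bZIP factor, fell by 2.62 and 2.14 on the log2 scale (adjusted p = 0.013 and 0.022), *Csrnp1*, a nuclear protein, by 2.77 and 2.03 (adjusted p = 0.013 and 0.023), and *Ptgs2*, which encodes cyclooxygenase-2, by 2.26 and 2.62 (adjusted p = 0.041 and 0.046). *Klf2*, a zinc finger factor, fell by 2.93 with Sox11 (adjusted p = 0.040) and was at -1.70 with Sox11K91A (adjusted p = 0.12).

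The AP-1 partners *Jun* and *Jund*, named here after their values were seen, were both called downregulated. *Jun* was at 239 and 276 CPM in control and 99.3 to 154 in the virus libraries, with log2 fold changes of -0.96 (adjusted p = 0.031) and -1.05 (adjusted p = 0.036). *Jund* was at 441 and 477 CPM in control and 193 to 243 in the virus libraries, with -1.19 (adjusted p = 0.012) and -1.08 (adjusted p = 0.019). Unlike for *Fos* and *Junb*, the 2 control libraries of these genes lay close to each other.

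In the other direction, *Sgk1*, a kinase downstream of PI3K, rose by 1.88 and 1.62 on the log2 scale (adjusted p = 0.018 and 0.036). *Nr4a2*, the nuclear receptor Nurr1 and a relative of *Nr4a1*, rose by 1.64 and 1.61 (adjusted p = 0.019 and 0.028), from 5.44 and 3.19 CPM in control to between 11.2 and 13.9. *Plk2*, a polo-like kinase that acts at synapses, rose by 1.44 and 1.33 (adjusted p = 0.013 and 0.020). All 3 were higher in each of the 4 virus libraries than in both controls.

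Late activity-response genes, many of them targets of the factors above, fell without exception among those called. Of 20 listed, 18 were tested, of which Sox11 downregulated 9 and Sox11K91A 7, with 0 upregulated by either and medians of -2.02 and -1.74. The downregulated shares were 50.0% and 38.9%, against 10.2% and 4.81% of all genes, and the upregulated shares of all genes were 9.96% and 5.81%. With the block for the 2 libraries that stood apart, 13 of the 18 were downregulated with each virus. That fit called 15.5% of all genes downregulated with Sox11 and 9.87% with Sox11K91A. *Nptx2*, a pentraxin that clusters AMPA receptors, was at 130 and 254 CPM in control and 26.3 to 37.4 in the virus libraries (-2.62 and -2.43, adjusted p = 0.011 and 0.016). Its relative *Nptx1* was at -2.54 and -2.17 (adjusted p = 0.012 and 0.020), and *Mmp9*, a secreted protease, at -2.90 and -2.86 (adjusted p = 0.017 and 0.026). *Tac1*, the substance P precursor, fell by 2.99 with Sox11 (adjusted p = 0.030) and was at -2.37 with Sox11K91A (adjusted p = 0.065). *Bdnf*, named here after its values were seen, was at 296 and 197 CPM in control, 87.2 and 34.2 with Sox11 (-2.16, adjusted p = 0.033), and 46.7 and 105 with Sox11K91A (-1.79, adjusted p = 0.071).

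**Figure D4:**
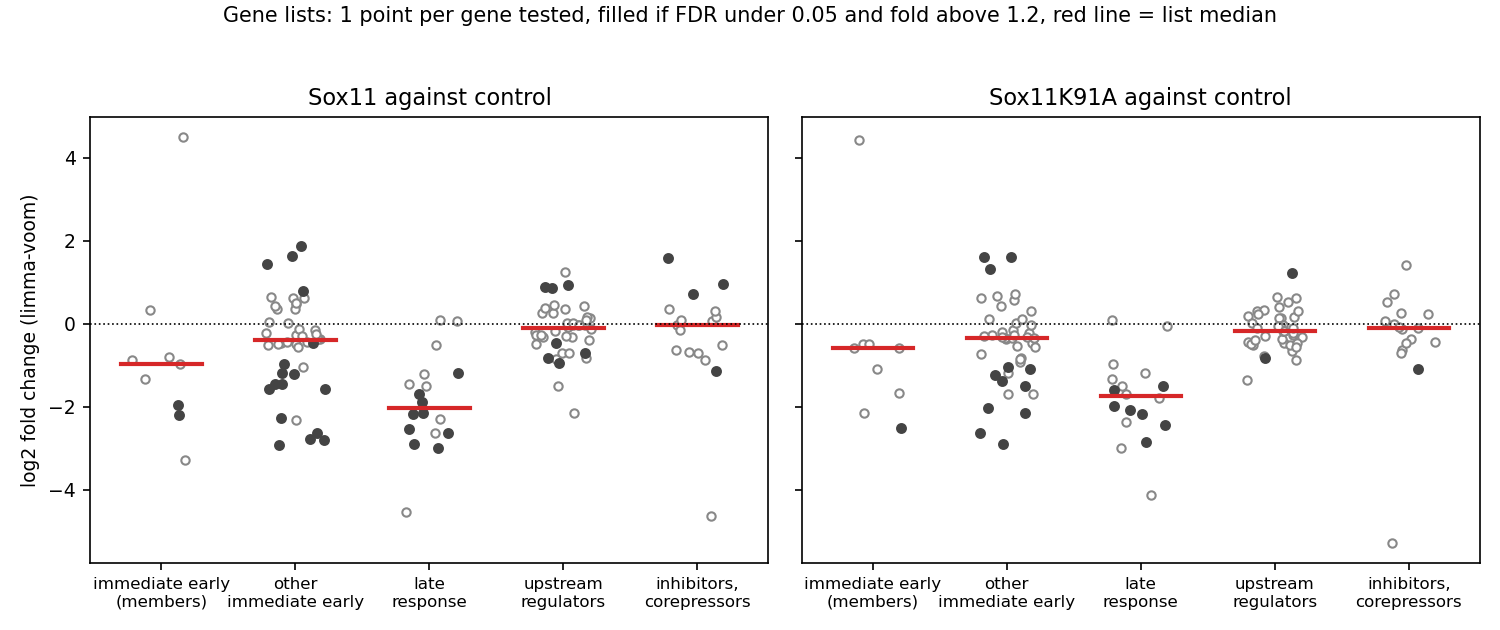
Log2 fold changes of each gene tested in 5 lists, for Sox11 and for Sox11K91A against control, with filled points for genes past the FDR of 0.05 and a fold above 1.2 and a red line at the median of each list. The medians are -0.97 and -0.59 for the members, -0.40 and -0.34 for the other immediate early genes, -2.02 and -1.74 for the late genes, and within 0.18 of 0 for the other 2 lists.

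Of 40 signalling genes and transcription factors upstream of this response, Sox11 upregulated 3 and downregulated 4, and Sox11K91A upregulated 1 and downregulated 1. These shares, 7.50% and 10.0% with Sox11 and 2.50% each with Sox11K91A, were no higher than those of all genes, and the medians were -0.10 and -0.18. With the block for the 2 libraries that stood apart, calls went down for 9 of the 40 and up for 5 with Sox11. The all-gene shares of that fit were 15.5% down and 14.8% up. Sox11K91A had 8 down and 2 up, where 9.87% and 9.21% of the whole set tested were called. *Mef2c*, a MADS-box factor, rose by 0.94 and 1.23 (adjusted p = 0.036 and 0.027), and *Creb1*, the cyclic AMP response factor, and *Elk1*, a ternary complex factor, rose by 0.87 and 0.89 with Sox11 (adjusted p = 0.028 and 0.040). *Rps6ka4*, the kinase MSK2, fell by 0.94 and 0.82 (adjusted p = 0.022 and 0.041). *Camk2b*, a calcium-calmodulin kinase, and *Prkaca*, a catalytic subunit of protein kinase A, fell by 0.82 and 0.70 with Sox11 (adjusted p = 0.042 and 0.030).

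Of 18 inhibitors and corepressors of these pathways, 17 were tested, of which Sox11 upregulated 3 and downregulated 1, and Sox11K91A downregulated 1 and upregulated 0. The upregulated share with Sox11 was 17.6% against 9.96% of all genes, and the downregulated share of 5.88% with each virus stood against 10.2% and 4.81%. With the block for the 2 libraries that stood apart, calls went down for 6 of the 17 and up for 3 with Sox11. In that fit the shares called among all genes were 15.5% down and 14.8% up. Sox11K91A had 4 down and 2 up, beside all-gene shares of 9.87% and 9.21%. *Pde4d* and *Pde4b*, phosphodiesterases that degrade cyclic AMP, rose by 1.58 and 0.96 with Sox11 (adjusted p = 0.049 and 0.019). *Rcan2*, a calcineurin inhibitor, rose by 0.72 (adjusted p = 0.046), and *Spry2*, an inhibitor of receptor tyrosine kinase signalling, fell by 1.14 and 1.10 with the 2 viruses (adjusted p = 0.012 and 0.019). With Sox11K91A the 3 rising genes were at 1.42, 0.73 and 0.53 and did not pass (adjusted p = 0.084, 0.051 and 0.13).

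The 10 RGC markers summed to 11400 and 10600 CPM in the controls, 7970 and 5330 with Sox11, and 6760 and 8380 with Sox11K91A, of which *Nefl*, a neurofilament gene, made 7090 and 6340 in the controls and 4100 and 2190 with Sox11. *Thy1*, *Nefl* and *Slc17a6*, 3 of the 10, were called downregulated with Sox11 and *Slc17a6* with Sox11K91A, shares of 30.0% and 10.0% against 10.2% and 4.81% of all genes. The other 7 were not called, among them *Rbpms* (-0.18 and -0.14), *Pou4f1* (-0.17 and -0.16), *Isl1* (0.05 and 0.08) and *Tubb3* (0.32 and 0.45), and the list median was -0.18 and -0.15. Amacrine markers summed to 221 and 93.5 CPM in control, 91.1 and 31.7 with Sox11, and 70.2 and 86.4 with Sox11K91A. Control replicate 1 was the highest and Sox11 replicate 2 the lowest, as for the members' sum. *Gad2* made the largest part of the amacrine sum, at 140 and 71.5 CPM in control, 52.6 and 20.6 with Sox11, and 28.5 and 48.3 with Sox11K91A. Not all markers followed the sum, as *Tfap2a* and *Slc32a1* had their lowest values, 0.363 and 1.22 CPM, in control replicate 2. *Gad1*, which makes the transmitter GABA, was at 36.2 and 2.83 CPM with the control virus and 17.5 and 2.23 CPM with Sox11. It was lowest in the 2 libraries that stood apart, against 19.7 and 17.2 with Sox11K91A. *Tfap2a* and *Slc32a1* were also lowest in those 2 libraries. *Gad2* and *Slc6a9* were not, and both were higher in control replicate 2 than in every virus library. Of the 5 amacrine markers, *Slc6a9* was called downregulated with both viruses. Of the other types, 1 of the 4 photoreceptor and bipolar markers tested was called downregulated with Sox11. With Sox11K91A 2 of the 3 endothelial markers tested were called upregulated, *Pecam1* at 0.389 to 2.23 CPM and *Tek* at 0.104 to 1.33, both near the floor. By limma-voom 0 microglia, fibroblast or pericyte markers were called. Among all genes 10.2% were called downregulated and 9.96% upregulated with Sox11, and 4.81% and 5.81% with Sox11K91A. The 7 microglia markers summed to 0.362 to 2.05 CPM, with *Tyrobp* at 0 in all libraries, the 7 photoreceptor and bipolar markers to 0.875 to 3.84, with *Rcvrn* at 0, the 6 fibroblast and pericyte markers to 5.93 to 15.0 and the 5 endothelial markers to 3.76 to 11.8. The 6 markers of astrocytes and Müller glia summed to 103 to 313 CPM, of which *Glul*, called upregulated with both viruses, made 97.2 to 310, and *Gfap* was at 0 in all libraries. The part of cell type composition, of the *Sox11* level, and of the sex of the cells as *Xist* and *Ddx3y* mark it, in the levels of the immediate early genes was not tested.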

How the data were processed

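RNA of 6 libraries, 2 in each of 3 groups, was analysed. According to their methods, the authors used STAR for alignment to mm10 and RSEM for counting. Their versions, annotation and strand setting are not given in the sources used here. The authors deposited 1 table per library with expected counts, which are not normalized, TPM values, which sum to 1000000, and the posterior standard deviation of each count, another RSEM estimate, which the deposited tables give as 0 for all members. Entries outside the Ensembl genes held 1 count in all. GENCODE M21 (GRCm38) gave coordinates and symbols, for 98% of Ensembl genes, and RefSeq gave promoter windows.

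Expected counts were rounded, genes were filtered with filterByExpr and scaled by TMM factors of 0.985 to 1.04 in edgeR 4.0.16, and 15747 genes were tested with limma-voom (limma 3.58.1, R 4.3.3) in 1 fit of all 6 libraries, which is the test that the authors name, with their thresholds. The filter and the scaling are not named in their methods. Adjusted p-values are two-sided limma-voom values unless stated, adjusted by Benjamini-Hochberg over all 15747 genes. Intervals are 95% intervals of that fit. CPM in the text uses TMM-scaled library sizes.

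The 10 members and all gene lists were chosen with earlier results of these data known. The genes named from a list were, per virus and direction, the 3 largest changes past the threshold with at least 1 CPM on average and no overlap between groups, and exceptions are stated. The 20 alternatives were edgeR's quasi-likelihood test, DESeq2 1.42.0, quality weights, limma-trend on log2(TPM + 1) and log2(TPM + 0.1), other scalings and filters, a fit of 2 groups, unrounded counts, blocks for the replicate number and for the 2 libraries low in *Xist*, leaving out each library in turn, and, chosen after seeing the data, leaving out those 2 libraries together. The lists of late, upstream, inhibitor and marker genes were counted without, and with the block for, those 2 libraries, also added after seeing the data. The labels do not set those 2 libraries apart, so the block for them itself rests on values of these data. For Sox11K91A against Sox11, a block with exchanged numbers was also added after seeing the data. In settings that leave 1 library in a group, that library is assumed to vary like the other groups. Python 3.11.15 with pandas 2.3.3 and matplotlib 3.10.9 made tables and figures.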

Additional observations from a re-analysis of the deposited data

How the results depend on the processing

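With 2 libraries per group, low counts limit *Egr2* and *Egr3*, and most calls of the members turned on single libraries. *Arc* kept its direction in all 20 alternatives with both viruses. For Sox11 against control the number of genes called, 3171, became 979 with quality weights, 2107 on log2(TPM + 0.1), 1637 in the fit of 2 groups, 4759 with the block for the 2 libraries low in *Xist* and 1630 without them. Members called downregulated, 2, became 5 with DESeq2, which also called 1 upregulated, 1 with quality weights, on log2(TPM + 1), on log2(TPM + 0.1) and in the fit of 2 groups, and 7 with that block and without those libraries. Other immediate early genes upregulated, 4, became 1 with quality weights, 8 with the block and 2 without the libraries, and those downregulated, 13, became 5 with quality weights and 8 on log2(TPM + 0.1) and in the fit of 2 groups. For Sox11K91A against control the genes called, 1672, became 3144 with DESeq2, 936 on log2(TPM + 1), 896 on log2(TPM + 0.1), 3006 with the block and 3871 without the libraries. Members downregulated, 1, became 3 with DESeq2, which also called 1 upregulated, and 7 with the block and without the libraries. Other immediate early genes upregulated, 3, became 5 with DESeq2 and without the libraries, and those downregulated, 9, became 3 on log2(TPM + 0.1) and 16 without the libraries. Between Sox11K91A and Sox11, DESeq2 called 2 genes. Leaving out 1 library at a time gave 0 to 3742 genes, 0 to 7 members downregulated, 0 members upregulated, and 0 to 7 other immediate early genes upregulated and 0 to 11 downregulated with Sox11. With Sox11K91A it gave 0 to 2529 genes, 0 to 1 member downregulated, and 0 to 5 and 0 to 10 other immediate early genes, and between the viruses 0 genes. The cause was not tested.

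Directions reversed in 32 of 546 values of single members, none of them called. Leaving out 1 library at a time, *Egr1* with Sox11 ranged from -0.50 to 1.10, and with Sox11K91A *Npas4* ranged from -1.41 to 0.07 and *Nr4a1* from -1.15 to 0.07. Between the viruses the ranges were -0.09 to 0.53 for *Fos*, -0.22 to 2.29 for *Fosb*, -0.24 to 0.76 for *Fosl2*, -0.22 to 0.64 for *Junb*, -1.57 to 0.03 for *Egr1*, -1.16 to 0.94 for *Egr3* and -0.16 to 0.68 for *Npas4*. Without the 2 libraries low in *Xist*, *Egr1* with Sox11 became -0.15, and between the viruses *Fos* became -0.09, *Fosb* -0.23, *Fosl2* -0.25, *Junb* -0.23, *Egr1* 0.03, *Egr3* 0.29 and *Npas4* -0.16. With the block for them, *Egr1* with Sox11K91A became 0.22, and between the viruses *Fos* became -0.18, *Fosb* -0.03, *Fosl2* -0.34, *Junb* -0.25, *Egr3* 0.08, *Npas4* -0.31 and *Nr4a1* -0.02. *Egr3* between the viruses also became 0.24 with edgeR and with DESeq2, 0.004 on log2(TPM + 1) and 0.43 with the replicate block.

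The labels do not say what a replicate number marks, and with 2 libraries per group the samples share only a number. Deviations from the group means, over 15747 genes, correlated between libraries of the same number at 0.259 (control and Sox11), -0.045 (control and Sox11K91A) and -0.282 (Sox11 and Sox11K91A). The replicate block called 2679 genes with Sox11, up and down together, 1402 with Sox11K91A and 0 genes between the viruses. The members among them were all downregulated, 4 with Sox11 (*Fosb*, *Fosl2*, *Junb* and *Arc*) and 3 with Sox11K91A (*Fosb*, *Fosl2* and *Arc*). With the Sox11K91A numbers exchanged, that block also gave 0 genes.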

Other observations

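Genes outside the class had levels over the libraries much like those of the members. The members' median of centred log2 CPM was 1.26 and 0.32 in the controls, -0.12 and -0.81 with Sox11, and -0.24 and -0.06 with Sox11K91A. By the root mean square difference of log2 CPM over the 6 libraries, the non-member genes most like this profile were *Plec*, a cytoskeletal linker (0.0831), *Sorl1*, a sorting receptor (0.0856), *Slc7a1*, a cationic amino acid transporter (0.0892), *Dnmt3a*, a DNA methyltransferase (0.0989), and *Gpr26*, an orphan receptor (0.105). In all, 211 genes lay within 0.25 of it, and the median of all genes was 0.71. *Plec* was at 433 and 208 CPM in the controls, 159 and 102 with Sox11, and 143 and 181 with Sox11K91A. *Dnmt3a* was at 403 and 199, 144 and 97.9, and 126 and 141 CPM in the same order. In both, as in the members' sum, control replicate 1 was far above control replicate 2 and Sox11 replicate 2 was the lowest. These likenesses over 6 libraries are descriptions with no test.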
